A study of Homo sapiens with 12 samples.

Results

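The proton pump of the lysosome and the channels and transporters that share its membrane were described by 40 genes of the 12616 listed in the expression table of 12 melanoma libraries. Members were chosen by a rule on symbols, with earlier results of these data known. A member has a symbol that starts with ATP6V0, ATP6V1 or ATP6AP and holds no hyphen, or is 1 of 17 named genes for lysosomal chloride and cation transport and for abundant lysosomal proteins. Of 41 RefSeq protein-coding symbols that meet this rule, ATP6V1C2 and ATP6V1G3 were not analysed here, and ATP6AP1L was listed in addition. The members fell into 9 genes of the V0 sector, 11 of the V1 sector, 3 accessory subunits, 5 chloride transporter genes with OSTM1 among them, 6 cation channels and 6 other membrane and lumen proteins.

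The V-ATPase is a rotary pump that spends ATP to move protons into lysosomes, endosomes and, in pigment cells, melanosomes. Its V1 sector lies in the cytosol and splits ATP, its V0 sector lies in the membrane and carries the protons, and both come apart and join again as the demand changes. The pump is also part of the platform on which mTORC1 reads amino acids at the lysosome. Chloride, sodium, potassium and calcium moving through the partner channels balance the charge and release stored calcium, and many of the genes carry binding sites for the MITF, TFEB and TFE3 family of factors.

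MeWo and SkMel28 are lines from human cutaneous melanoma, and both carried a hairpin RNA against MITF that doxycycline (Dox) switches on. Uninduced cells (control, 0 µg/ml Dox) and induced cells (Dox, 1 µg/ml for 8 days) of both lines were each sequenced in 3 libraries, which the labels do not describe as separate cultures, so p-values measure the spread between these samples and may be technical. The labels put MeWo in EMEM and SkMel28 in RPMI, both with serum, while the study's methods name RPMI for its human melanoma lines other than HBL. The sources thus disagree on the medium of MeWo, and if the labels hold, line and medium cannot be told apart. No line received Dox without the hairpin. RNA was read at the 3′ end of its transcripts, with 2568187 to 3714608 reads per library. Values are normalised read counts per 1000000 of effective library size, on which 1 read is worth 0.278 to 0.389, and reads of 1 transcript end are not divided by gene length. Each change is a difference of mean log2(value + 1), given ± its standard error (SE). Its p came from limma and was adjusted by Benjamini-Hochberg over all 12616 genes, and "called" means that this adjusted p lay under 0.05.

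MITF, the target of the hairpin, was lower in each Dox library. In MeWo it read 657, 663 and 708 in control and 451, 354 and 371 with Dox (log2 change −0.79, adjusted p = 6.49e-05), and in SkMel28 861, 739 and 792 and 575, 578 and 552 (log2 change −0.49, adjusted p = 0.00705). The 7 melanocyte lineage markers had sums of 13020 to 13210 in MeWo control and 6465 to 8163 with Dox, and of 11010 to 12310 in SkMel28 control and 6597 to 6809 with Dox. PMEL made up the largest part of these control sums. In MeWo 6 of the 7 were called lower and DCT higher (log2 change 0.91, adjusted p = 2.71e-05), and in SkMel28 MITF, PMEL and MLANA were called lower and 0 higher, with positive fitted changes for SOX10 (log2 change 0.27, adjusted p = 0.430) and TYR (log2 change 0.28, adjusted p = 0.486). Of markers of other cells, 0 of 5 leukocyte and 0 of 4 endothelial genes were listed, 1 of 5 keratinocyte genes (KRT10) and 2 of 5 fibroblast genes (LUM and DCN). KRT10 read 131 to 153.2 in MeWo control and 145.2 to 159.5 with Dox, and 86.2 to 104.1 and 111.2 to 116.6 in SkMel28. The fibroblast sums in MeWo were 41.5 to 47.8 in control and 9.85 to 19.2 with Dox (SkMel28 10.9 to 13.3, then 6.04 to 8.91). These sums were mostly LUM, called lower in MeWo (log2 change −1.78, adjusted p = 3.06e-05). DCN had a positive fitted change in MeWo (log2 change 0.40, adjusted p = 0.381). The part of these markers in the results was not tested. Across genes, replicates correlated at 0.979 to 0.985 in 3 groups and at 0.960 to 0.976 in MeWo Dox, where library 1 stood apart, so counts are also given without it. In bulk RNA, fewer cells with a transcript and less of it per cell cannot be told apart.

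MITF, TFEB and TFE3 bind E-box sequences, and the promoter windows that bear on the members were read from RefSeq (GRCh38.p14, 250 bases before to 50 after the transcription start). A window was given for 30 of the 40 members, 42 windows in all. Searched on both strands were CACGTG, its extension TCACGTGA, which always contains CACGTG, and CATGTG. Counted once per gene, CACGTG was in 9 of 30 members (30%) and in 13% of the 9527 listed genes with a window, TCACGTGA in 6 members (20%) against 2.32%, and CATGTG in 7 (23.3%) against 10.1%. Over all 35116 windows the shares were 7.26%, 0.98% and 11.1%. TCACGTGA was found in ATP6V0D1, ATP6V1G1, CLCN5, CLCN6, LAMP1 and MCOLN1. Among the 8 members with a window that were called lower with Dox in MeWo, 1 held CACGTG, 0 held TCACGTGA and 3 held CATGTG. Also called lower there, but without a window, were ATP6V0D2, ATP6V0E1, ATP6V1A, ATP6V1B2, ATP6V1C1, ATP6V1H and LAMP2. The motif counts thus leave out the member with the largest change (ATP6V0D2) and that with the smallest adjusted p in MeWo (ATP6V1B2). The windows below belong to members described further on, and capitals mark each match to 1 of these motifs. CLCN7 was lower with Dox in both lines and SCARB2 higher in both, LAMP1 held the most matches, ATP6V0D1 is the paralog of the member with the largest change, and TPCN2, where none of the motifs occurred in this window, moved in opposite directions.
CLCN7, chr16:1474979-1475278, minus strand: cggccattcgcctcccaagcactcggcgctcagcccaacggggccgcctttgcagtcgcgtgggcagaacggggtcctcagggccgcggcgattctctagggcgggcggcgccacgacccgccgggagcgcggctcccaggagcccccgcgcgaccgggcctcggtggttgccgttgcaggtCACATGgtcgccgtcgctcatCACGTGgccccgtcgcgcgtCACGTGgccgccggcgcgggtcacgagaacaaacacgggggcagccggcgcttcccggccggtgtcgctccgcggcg
SCARB2, chr4:76213775-76214074, minus strand: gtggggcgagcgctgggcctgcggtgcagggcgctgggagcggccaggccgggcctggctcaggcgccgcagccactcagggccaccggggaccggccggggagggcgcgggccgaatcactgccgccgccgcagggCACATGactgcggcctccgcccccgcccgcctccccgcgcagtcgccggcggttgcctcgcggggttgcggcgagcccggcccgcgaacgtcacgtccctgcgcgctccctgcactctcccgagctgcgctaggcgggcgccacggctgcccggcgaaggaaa
LAMP1, chr13:113296989-113297288, plus strand: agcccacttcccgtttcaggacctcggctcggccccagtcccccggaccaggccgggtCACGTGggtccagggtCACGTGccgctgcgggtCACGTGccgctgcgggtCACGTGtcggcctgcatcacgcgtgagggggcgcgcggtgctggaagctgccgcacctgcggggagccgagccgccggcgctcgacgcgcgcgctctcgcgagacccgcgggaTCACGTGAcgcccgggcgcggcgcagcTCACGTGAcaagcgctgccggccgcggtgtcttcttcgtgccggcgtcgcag
ATP6V0D1, chr16:67481108-67481407, minus strand: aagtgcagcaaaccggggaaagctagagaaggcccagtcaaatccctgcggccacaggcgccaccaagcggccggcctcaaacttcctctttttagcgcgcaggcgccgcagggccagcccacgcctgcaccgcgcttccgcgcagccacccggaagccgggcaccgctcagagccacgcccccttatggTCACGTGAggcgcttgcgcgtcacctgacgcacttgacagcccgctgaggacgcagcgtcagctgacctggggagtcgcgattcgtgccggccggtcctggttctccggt
TPCN2, chr11:69048682-69048981, plus strand: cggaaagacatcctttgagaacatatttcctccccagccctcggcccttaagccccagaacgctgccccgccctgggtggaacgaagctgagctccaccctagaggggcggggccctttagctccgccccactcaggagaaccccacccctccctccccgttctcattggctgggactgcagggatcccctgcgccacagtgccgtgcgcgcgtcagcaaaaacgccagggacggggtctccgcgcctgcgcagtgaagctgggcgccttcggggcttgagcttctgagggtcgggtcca

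CLCN7 held 2 copies of CACGTG and 1 of CATGTG, which reads CACATG on the strand shown. LAMP1 held 6 copies of CACGTG, of which 2 lay within TCACGTGA, and ATP6V0D1 held 1 copy of TCACGTGA. SCARB2 held a single CATGTG, again as CACATG. A match describes these letters, and no binding was measured here.

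The first comparison asked what happened to the pump and its partners when the hairpin was switched on in MeWo. Of the 40 members, 15 were called lower and 2 higher, which is 17 called against 16.7% of all listed genes (8.12% lower, 8.58% higher). The lower members were 4 of the V0 sector, 6 of the V1 sector, CLCN7, its partner OSTM1, the channel TPCN2, LAMP2 and NPC2, and the higher ones were SCARB2 and ATP6AP2. The median change was −0.29 over the members and 0.00 over all genes. A negative change was found in 27 of 40 members and in 6294 of 12616 genes. All 3 Dox libraries lay below all 3 controls in 15 members and above them in 5, where 14.7% and 14.1% of all genes did so. Without MeWo Dox library 1, 21 members were called, 17 lower and 4 higher, and 31.0% of all genes were.

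In SkMel28 fewer members were called. There 7 were lower (ATP6V0D2, ATP6V1C1, ATP6V1E2, ATP6V1F, ATP6AP1, CLCN7 and NPC2) and 3 higher (TPCN2, SCARB2 and LAMP1), 10 in all against 10.9% of listed genes (5.04% lower, 5.88% higher). The median change was −0.08 over the members and 0.00 over all genes. As in MeWo, 27 of 40 members had a negative change, beside 6195 of 12616 genes. The 3 Dox libraries lay below the controls in 11 members and above them in 7, where 16.1% of all genes lay below and 16.1% above. Without MeWo Dox library 1, which here enters only the estimate of the spread, 14 members were called, 9 lower and 5 higher, and 16.2% of all genes were.

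**Figure D1:**
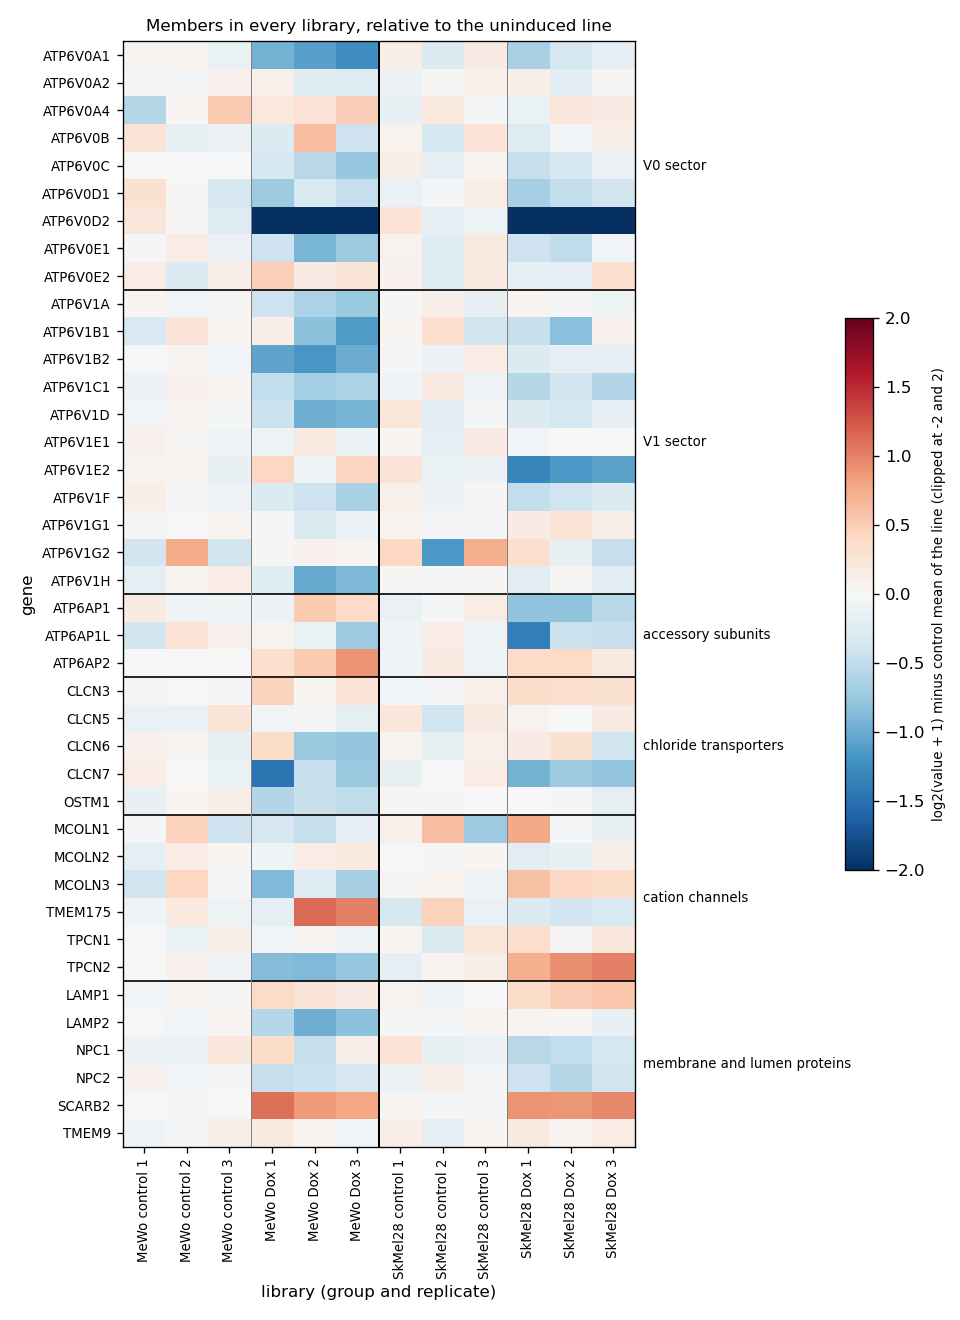
Each of the 40 members (rows, grouped by role) in each of the 12 libraries (columns), as log2(value + 1) minus the mean of the 3 control libraries of the same line, with blue lower and red higher and the colours clipped at −2 and 2. ATP6V0D2 is dark blue in all 6 Dox libraries, SCARB2 is red in all 6, and TPCN2 is blue in MeWo Dox and red in SkMel28 Dox.

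How the MeWo calls split into higher and lower depended on the scaling. With libraries scaled to the synthetic spike-in RNAs, which took 5.69 to 8.55% of reads, the median of all genes in MeWo moved up by 0.257 on the log2 scale, and the members called were 6 higher and 6 lower in place of 2 and 15, with 19.7% of all genes called. Of the 17 calls, 8 were kept, none changed sign, and 9 were lost: ATP6V0C, ATP6V0E1, ATP6V1A, ATP6V1C1, ATP6V1D, ATP6V1F, ATP6V1H, OSTM1 and NPC2. In SkMel28 the same scaling moved all genes by −0.0937 and gave 2 higher and 5 lower, with 7.35% of all genes called and the calls of LAMP1, ATP6V1C1 and ATP6V1F lost. Changes below are relative to the typical gene of the line.

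ATP6V0D2, an isoform of the d subunit that joins the membrane ring to the stalk and is known from osteoclasts, had the largest change of all members in both lines (chr8:85987323-86154225, plus strand, hg38). In MeWo its values were 11.8, 10.1 and 8.10 in control and 0, 1.14 and 0.339 with Dox (log2 change −2.94 ± 0.34, adjusted p = 1.16e-05). The 3 Dox libraries held 4 reads in sum against 92 in the controls, a ratio of 22.0 at equal depth with an exact 95% interval of 8.29 to 82.3 that covers counting error only. In SkMel28 the values were 21.4, 15.5 and 16.5 in control and 1.48, 1.00 and 0 with Dox (log2 change −3.45 ± 0.34, adjusted p = 4.12e-06). Control and Dox libraries did not overlap in either line. Its paralog ATP6V0D1, the form found in most cells, read 58.5, 47.8 and 37.6 in MeWo control and 28.4, 37.9 and 33.9 with Dox, which overlapped (log2 change −0.50 ± 0.17, adjusted p = 0.0614). In SkMel28 it read 35.6, 38.4 and 43.3 in control and 24.3, 27.4 and 29.9 with Dox, without overlap but not called (log2 change −0.51 ± 0.17, adjusted p = 0.0755).

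The other V0 genes called with Dox were called in MeWo and not in SkMel28. ATP6V0A1, an isoform of the large a subunit that guides protons through the membrane, read 120.4, 122 and 106 in MeWo control and 60.0, 54.2 and 48.4 with Dox (log2 change −1.09 ± 0.15, adjusted p = 6.08e-05). All 3 Dox libraries were below the controls, at 53.4% under the control mean. In SkMel28 the values overlapped, at 148, 113 and 152 and 87.0, 106 and 121 (log2 change −0.39 ± 0.15, adjusted p = 0.113), and the difference between the lines was not called (−0.70 ± 0.21, adjusted p = 0.0521). ATP6V0C, which encodes the c subunit of the rotating ring, read 1302, 1285 and 1279 in MeWo control and 1004, 880.05 and 759 with Dox (log2 change −0.56 ± 0.12, adjusted p = 0.00431). Its SkMel28 libraries read 1473, 1221 and 1403 and 994, 1066 and 1249, with Dox library 3 above control library 2 (log2 change −0.31 ± 0.12, adjusted p = 0.123). ATP6V0E1, a small membrane subunit, read 229, 261 and 217 in MeWo control and 176, 124 and 141 with Dox, without overlap (log2 change −0.69 ± 0.15, adjusted p = 0.00476). Its SkMel28 means of 266 ± 38.9 (SD, n = 3, as in all means below) in control and 212 ± 36.3 with Dox were not called apart (log2 change −0.33 ± 0.15, adjusted p = 0.203). The annotation holds 4 pseudogenes named after ATP6V0C and 4 after ATP6V0E1, and how reads with several matches were counted is not stated. Both genes also lost their MeWo call under spike-in scaling.

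The remaining 4 V0 genes were not called in either line. ATP6V0A2, another a subunit isoform, was at 12.8 ± 0.691 in MeWo control and 11.6 ± 1.83 with Dox, and ATP6V0A4, the isoform known from kidney and inner ear, at 2.79 ± 1.39 and 3.56 ± 0.454. In SkMel28 ATP6V0A4 stayed at 1 or 2 reads a library. ATP6V0B, another ring subunit, read 105, 78.5 and 80.0 in MeWo control and 71.8, 133 and 65.4 with Dox, where library 2 stood highest, and its fitted change was −0.02 ± 0.22 in MeWo and −0.07 ± 0.22 in SkMel28. ATP6V0E2, paralog of ATP6V0E1, was at 31.0 ± 4.95 in MeWo control and 38.2 ± 4.43 with Dox, with all Dox libraries above the controls but no call (log2 change 0.30 ± 0.19, adjusted p = 0.315).

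In the V1 sector the catalytic core moved in MeWo. ATP6V1B2, the B subunit of most tissues (chr8:20197381-20226819, plus strand), had the smallest adjusted p of all members there. Its values were 680.4, 697 and 646 in MeWo control and 323, 301 and 338 with Dox (log2 change −1.07 ± 0.10, adjusted p = 1.07e-06), which is 52.5% lower. SkMel28 libraries read 782, 742 and 885 in control and 662, 697 and 715 with Dox. These groups did not overlap either, yet the mean, 13.9% lower, was not called (log2 change −0.21 ± 0.10, adjusted p = 0.214), and the difference between the lines was (log2 difference −0.86 ± 0.14, adjusted p = 0.00166). Under spike-in scaling this difference was −0.49 with an adjusted p of 0.215. ATP6V1A, the subunit that splits ATP, read 87.5, 82.8 and 87.4 in MeWo control and 64.2, 55.3 and 51.1 with Dox (log2 change −0.59 ± 0.12, adjusted p = 0.00324). Its SkMel28 values overlapped at 91.0, 97.7 and 80.9 and 92.0, 86.9 and 83.7 (log2 change −0.03 ± 0.12, adjusted p = 0.910).

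4 more V1 genes were called lower in MeWo, and 2 of them in SkMel28 as well. ATP6V1C1, which clamps the stator to the core, read 40.0, 46.2 and 44.7 and 30.6, 26.9 and 27.8 in MeWo (log2 change −0.60 ± 0.14, adjusted p = 0.00633) and 62.9, 74.9 and 61.3 and 44.2, 50.5 and 43.8 in SkMel28 (log2 change −0.51 ± 0.14, adjusted p = 0.0243), with every Dox library below every control. The SkMel28 call of ATP6V1C1 was lost in 6 of 23 alternatives, among them leaving out SkMel28 control 1 or 2 or Dox 1 or 3. ATP6V1F, part of the central rotor, read 266, 239 and 225 and 199.8, 182 and 154 in MeWo (log2 change −0.45 ± 0.12, adjusted p = 0.0177), a call lost in 6 of 23 alternatives, among them leaving out MeWo control 1 or 2 or Dox 3. SkMel28 gave 207, 177 and 196 and 136, 146 and 159 (log2 change −0.39 ± 0.12, adjusted p = 0.0455), again without overlap, but this call was lost in 14 of 23 alternatives. ATP6V1F overlaps KCP on the other strand. ATP6V1D, also of the rotor, read 74.6, 81.6 and 76.1 in MeWo control and 57.5, 39.0 and 40.0 with Dox (log2 change −0.78 ± 0.16, adjusted p = 0.00276). ATP6V1H, which holds back ATP splitting in the free V1 sector, read 34.6, 41.6 and 44.0 and 33.5, 19.3 and 21.0 (log2 change −0.71 ± 0.18, adjusted p = 0.0117). Neither gene overlapped between the MeWo groups, and the call of ATP6V1H was lost in 6 of 23 alternatives, among them leaving out MeWo control 2 or 3 or Dox 2 or 3. In SkMel28 the fitted change was −0.26 ± 0.16 for ATP6V1D and −0.15 ± 0.18 for ATP6V1H, both uncalled.

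ATP6V1E1 and ATP6V1E2 are paralogs of the peripheral stalk, and only ATP6V1E2 was called with Dox, in SkMel28. ATP6V1E1, the common form, read 268, 255 and 234 and 234, 286 and 233 in MeWo and 615, 525 and 672 and 581, 605 and 600.1 in SkMel28, with fitted changes of −0.01 (95% interval −0.26 to 0.23) and −0.01 (−0.26 to 0.23). The annotation holds 3 pseudogenes named after ATP6V1E1. ATP6V1E2, known from testis, read 21.2, 15.9 and 16.1 in SkMel28 control and 6.53, 7.35 and 7.86 with Dox (log2 change −1.17 ± 0.23, adjusted p = 0.00270). In MeWo it was lower from the outset and overlapped, at 4.32, 4.27 and 3.56 and 5.75, 3.79 and 5.76 (log2 change 0.26 ± 0.23, adjusted p = 0.488). The difference between the lines was called (1.43 ± 0.33, adjusted p = 0.0143) and stayed so in 22 of 22 alternatives. ATP6V1E2 overlaps RHOQ on the other strand, and RHOQ was itself lower with Dox in both lines (log2 change −0.66, adjusted p = 0.00259 in MeWo, and −0.48, adjusted p = 0.0291 in SkMel28). The strand used for counting is not stated, so reads of the pair cannot be told apart.

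Other V1 genes were not called in either line. ATP6V1G1 of the peripheral stalk was at 432 ± 13.9 in MeWo control and 390.5 ± 34.6 with Dox, and at 445 ± 16.9 and 510.2 ± 30.7 in SkMel28, where the Dox libraries lay above the controls (log2 change 0.20 ± 0.10, adjusted p = 0.259). The annotation holds 7 pseudogenes named after it. ATP6V1B1, the B subunit of kidney and inner ear, held 9 to 11 reads per MeWo control library, 3 to 12 with Dox, and at most 4 in any SkMel28 library. It overlaps VAX2 on the same strand. ATP6V1G2, the form of neurons, held at most 7 reads in any library.

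The accessory subunits ATP6AP1 and ATP6AP2, which help assemble the pump, were each called in 1 line. ATP6AP1 (chrX:154428633-154436516, plus strand) read 337, 362 and 409 in SkMel28 control and 211, 210.2 and 251 with Dox, with every Dox library below every control (log2 change −0.72 ± 0.15, adjusted p = 0.00354). In MeWo it read 291, 246 and 245 and 240.03, 372 and 339, and only Dox library 1 lay below the controls (log2 change 0.26 ± 0.15, adjusted p = 0.242). Without MeWo Dox library 1, as under spike-in scaling, ATP6AP1 was called higher in MeWo. The difference between the lines was called (log2 difference 0.98 ± 0.21, adjusted p = 0.00943) and was lost in 1 of 22 alternatives. ATP6AP2, also known as the prorenin receptor, read 198, 194 and 197 in MeWo control and 248, 282 and 367 with Dox, so that all Dox libraries were above all controls (log2 change 0.58 ± 0.13, adjusted p = 0.00595). In SkMel28 the libraries were apart as well, at 236, 283 and 232 and 327, 329 and 285, with no call (log2 change 0.33 ± 0.13, adjusted p = 0.139). ATP6AP1L, a gene like ATP6AP1, was at 6.19 ± 0.685 in SkMel28 control and 3.45 ± 1.45 with Dox, uncalled (log2 change −0.75 ± 0.31, adjusted p = 0.145).

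**Figure D2:**
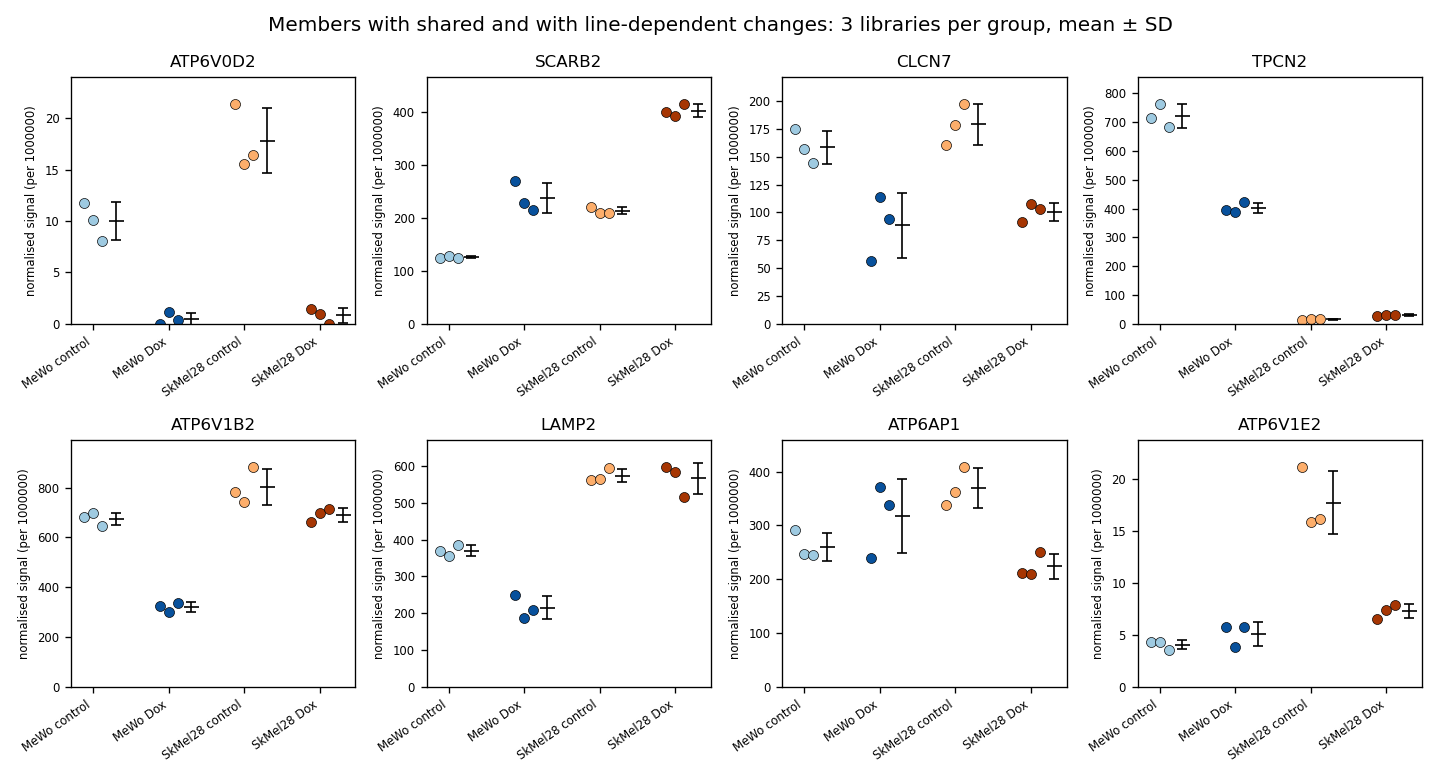
Normalised read counts of 8 members (vertical axis, from 0) in the 4 groups, with 3 points for the libraries and a bar for the mean ± SD. In the upper row ATP6V0D2 and CLCN7 are lower and SCARB2 higher with Dox in both lines, and TPCN2 is lower in MeWo and higher in SkMel28; in the lower row ATP6V1B2 and LAMP2 are lower in MeWo Dox while ATP6AP1 and ATP6V1E2 are lower in SkMel28 Dox.

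The chloride transporter transcripts were those of the proton-coupled exchangers CLCN3, CLCN5, CLCN6 and CLCN7 and of OSTM1, the partner that CLCN7 needs to be stable in lysosomes. CLCN7 (chr16:1444934-1475077, minus strand) read 174, 157 and 145 in MeWo control and 56.8, 114 and 94.2 with Dox (log2 change −0.89 ± 0.19, adjusted p = 0.00295). MeWo Dox library 1 was the lowest, and without it the change was −0.60 (adjusted p = 0.00106). SkMel28 values were 161, 179 and 198 and 91.7, 108 and 103 (log2 change −0.82 ± 0.19, adjusted p = 0.00745), so that the 3 Dox libraries were below the controls in both lines, by 44.3% and 43.7% of the means. OSTM1 read 164, 188 and 198 and 122, 134 and 128 in MeWo, without overlap (log2 change −0.51 ± 0.11, adjusted p = 0.00287). Its SkMel28 values were 255, 246 and 251 and 248, 246 and 222, with overlap (log2 change −0.07 ± 0.11, adjusted p = 0.763), and the difference between the lines was not called (−0.44 ± 0.15, adjusted p = 0.0793).

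The endosomal exchangers were not called. CLCN3 had all Dox libraries above all controls in both lines, from 117 ± 2.08 to 140.1 ± 19.5 in MeWo (log2 change 0.24 ± 0.12, adjusted p = 0.165), while SkMel28 went from 132 ± 8.65 to 167 ± 3.84 (log2 change 0.34 ± 0.12, adjusted p = 0.0769). CLCN5 and CLCN6 overlapped in both lines, with changes of −0.10 ± 0.20 and −0.38 ± 0.26 in MeWo and 0.07 ± 0.20 and 0.02 ± 0.26 in SkMel28.

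TPCN2, a sodium and calcium channel of lysosomes and melanosomes that is known to affect pigmentation, was called in opposite directions (chr11:69048932-69136316, plus strand). In MeWo it read 714, 764 and 683 in control and 394, 389 and 423 with Dox (log2 change −0.84 ± 0.12, adjusted p = 0.000109), 44.2% lower. In SkMel28 it was far lower to begin with, at 13.6, 16.2 and 16.9, and read 26.1, 30.4 and 32.0 with Dox (log2 change 0.88 ± 0.12, adjusted p = 0.000107), 89.7% higher. No Dox library overlapped a control of its line. The difference between the lines was −1.72 ± 0.17 (adjusted p = 1.66e-05) and was called in 22 of 22 alternatives, and the SkMel28 Dox values remained far under the MeWo Dox values. Its relative TPCN1, called in neither line, was at 69.2 ± 6.26 and 67.5 ± 4.02 in MeWo and 31.4 ± 5.91 and 35.8 ± 4.20 in SkMel28, with overlap in both (−0.03, 95% interval −0.36 to 0.29, and 0.20, −0.13 to 0.52).

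The mucolipins MCOLN1, MCOLN2 and MCOLN3 release calcium from lysosomes and endosomes. MCOLN3 read 7.20, 13.2 and 9.39 in MeWo control and 4.79, 7.96 and 5.76 with Dox, and 53.5, 54.9 and 49.0 and 79.3, 70.2 and 67.7 in SkMel28. The SkMel28 libraries were higher with Dox without overlap, and neither line gave a call (log2 change −0.60 ± 0.21, adjusted p = 0.0609 in MeWo; log2 change 0.46 ± 0.21, adjusted p = 0.194 in SkMel28). The difference between the lines was called (−1.05 ± 0.30, adjusted p = 0.0410) but lost in 12 of 22 alternatives. MCOLN1, the main lysosomal form and a known TFEB target, was at 5.28 ± 1.94 and 3.88 ± 0.498 in MeWo and 4.15 ± 2.22 and 4.71 ± 2.10 in SkMel28, too few reads to show a modest change (95% interval −1.05 to 0.40 in MeWo). The gene PNPLA6, which shares part of its locus with MCOLN1 on the same strand, had a mean of 9.90 over the 12 libraries. MCOLN2 overlapped in both lines (0.09 ± 0.17 and −0.09 ± 0.17). TMEM175, the lysosomal potassium channel, read 22.5, 27.6 and 22.3 in MeWo control and 21.1, 53.8 and 49.1 with Dox. Dox library 1 sat below the controls and the other 2 Dox libraries above them, and no call was made (log2 change 0.65 ± 0.29, adjusted p = 0.131), while without library 1, as under spike-in scaling, the gene was called higher.

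SCARB2 carries glucocerebrosidase to lysosomes (chr4:76158737-76234536, minus strand), and it was the member called higher in both lines. It read 125, 128 and 124 in MeWo control and 269, 228 and 215 with Dox (log2 change 0.91 ± 0.11, adjusted p = 1.14e-05). SkMel28 controls read 220.2, 209 and 209 and Dox libraries 399, 392 and 415 (log2 change 0.91 ± 0.11, adjusted p = 1.90e-05). Each Dox library was above each control of its line, by 89.0% and 88.8% of the means, and the call was kept in 23 of 23 alternatives in each line. Over all genes, 1.91% were called higher in both lines and 1.79% lower in both, where the members gave 1 and 5.

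LAMP1 and LAMP2, the glycoproteins that coat the inner face of the lysosomal membrane, were each called in 1 line, LAMP2 lower in MeWo and LAMP1 higher in SkMel28. LAMP2 read 369.7, 356 and 386 in MeWo control and 249, 188 and 209 with Dox (log2 change −0.79 ± 0.11, adjusted p = 9.74e-05). In SkMel28 it read 562, 565 and 595 and 599, 584 and 517, which overlapped (log2 change −0.02 ± 0.11, adjusted p = 0.944). The difference between the lines was called (−0.77 ± 0.16, adjusted p = 0.00812), but not under spike-in scaling, where it was −0.40 (adjusted p = 0.323). LAMP1 read 230.3, 209 and 219.6 in SkMel28 control and 282, 308 and 321 with Dox (log2 change 0.47 ± 0.10, adjusted p = 0.00683). In MeWo it read 182, 194 and 192 and 247, 227 and 212, also with every Dox library above every control but not called (log2 change 0.27 ± 0.10, adjusted p = 0.0851), and the difference between the lines was not called (−0.20 ± 0.15, adjusted p = 0.429).

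The cholesterol carriers NPC1 and NPC2 hand cholesterol out of the lysosome. NPC2, the lumen protein, read 787, 719 and 727 in MeWo control and 539, 553 and 591 with Dox (log2 change −0.41 ± 0.10, adjusted p = 0.0121) and 439, 524 and 466 and 356, 319 and 364 in SkMel28 (log2 change −0.46 ± 0.10, adjusted p = 0.00765), with all Dox libraries below the controls in both lines. The MeWo call of NPC2 was lost in 3 of 23 alternatives, among them leaving out MeWo control 1, and the SkMel28 call in 2, among them leaving out SkMel28 Dox 2. NPC2 overlaps ISCA2 on the other strand, which had a mean of 14.6 over the 12 libraries. NPC1, the membrane protein, overlapped in MeWo, at 24.5, 24.5 and 31.4 and 34.5, 19.0 and 29.1. In SkMel28 it read 40.4, 29.8 and 30.7 and 22.3, 23.4 and 26.0 with the Dox libraries below, uncalled (log2 change −0.47 ± 0.20, adjusted p = 0.170). TMEM9, a lysosomal membrane protein, overlapped in both lines (0.06 ± 0.13 and 0.12 ± 0.13).

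A further comparison asked whether the change differed between the lines, and 6 of 40 members were called, against 7.09% of all genes. TPCN2, ATP6V1B2, LAMP2 and MCOLN3 had the lower change in MeWo (3.38% of all genes) and ATP6AP1 and ATP6V1E2 the higher (3.71%). Without MeWo Dox library 1, 14 members were called, 11 with the lower change in MeWo, and 24.7% of all genes were. Under spike-in scaling 4 were called, 3 higher and 1 lower in place of 2 and 4, with 12% of all genes called and all genes moved by 0.349. Under quantile normalization 2 were higher and 7 lower, with 7.28% of all genes called. In the main fit, a difference was thus called for ATP6V1B2 and LAMP2 among the 10 members called in MeWo and not in SkMel28. Among the 3 called in SkMel28 and not in MeWo, a difference was called for ATP6AP1 and ATP6V1E2. It was not called for the others, ATP6V0A1 being the nearest. Spike-in scaling removed the calls of ATP6V1B2 and LAMP2, and a fit without the mean-variance trend removed those of LAMP2 and ATP6AP1. ATP6V1E2 kept its call in 22 of 22 alternatives.

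**Figure D3:**
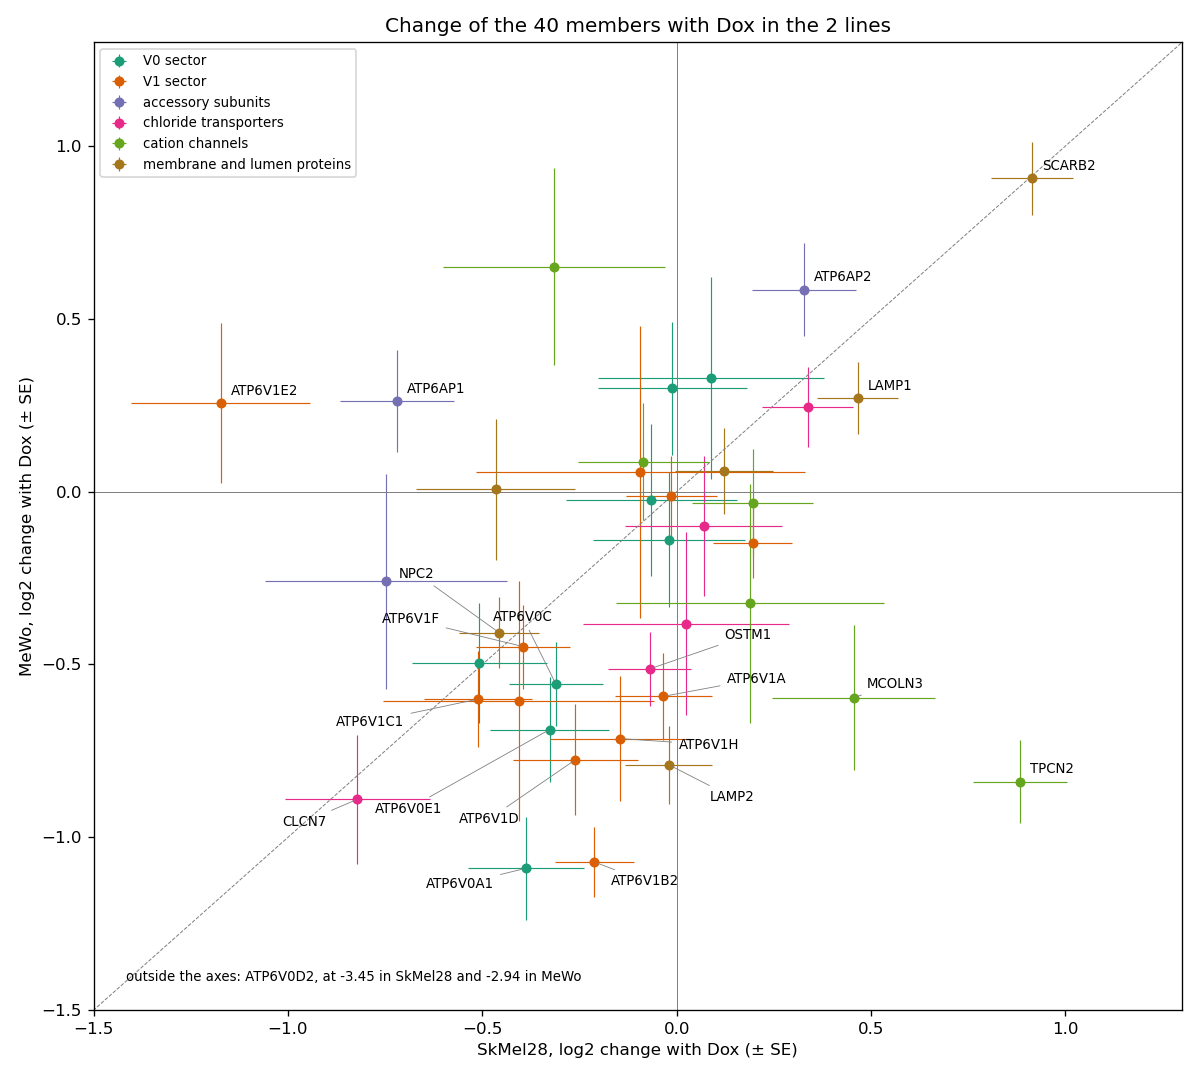
Fitted log2 change with Dox in SkMel28 (horizontal) and MeWo (vertical) for the members, with SE bars, colours for the 6 roles and a dashed line of equal change; members called in a line or for the difference are named, and ATP6V0D2 lies outside the axes at −3.45 and −2.94. SCARB2 and CLCN7 lie near the dashed line, TPCN2 lies at the lower right, and ATP6V1E2 and ATP6AP1 lie at the upper left.

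Summed over each role, the V0 genes read 1874, 1846 and 1779 in MeWo control and 1400.3, 1279 and 1099.8 with Dox, a change of the mean of −31.3%, and a large share of this sum was ATP6V0C. The V1 genes read 1878, 1880.1 and 1813 and 1373, 1268 and 1270.1, a change of −29.8%. Both sums were below the controls in every MeWo Dox library. The MeWo sum of the 5 chloride transporter genes differed by −21.9%, of the 6 cation channels, mostly TPCN2, by −36.5% and of the membrane and lumen proteins by −11.9%, and that of the accessory subunits by 34.6%, all without overlap. For the accessory subunits the MeWo groups nearly met, at 489.96 in Dox library 1 and 489.23 in control library 1. Dox libraries 2 and 3 read 655 and 707. In SkMel28 the V0 sum of 2182, 1784 and 2170.4 in control overlapped the 1489, 1591 and 1891 with Dox, and the V1 sum overlapped too (−19.0% and −6.47%). There the accessory sum stood at −13.5% and the chloride sum at −8.82%, and the cation channels at 22.5% and the membrane and lumen proteins at 8.33%, each without overlap. Over all 40 members the change was −22.3% in MeWo without overlap and −6.92% in SkMel28 with overlap. Sums weigh each gene by its own level and were not tested.

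**Figure D4:**
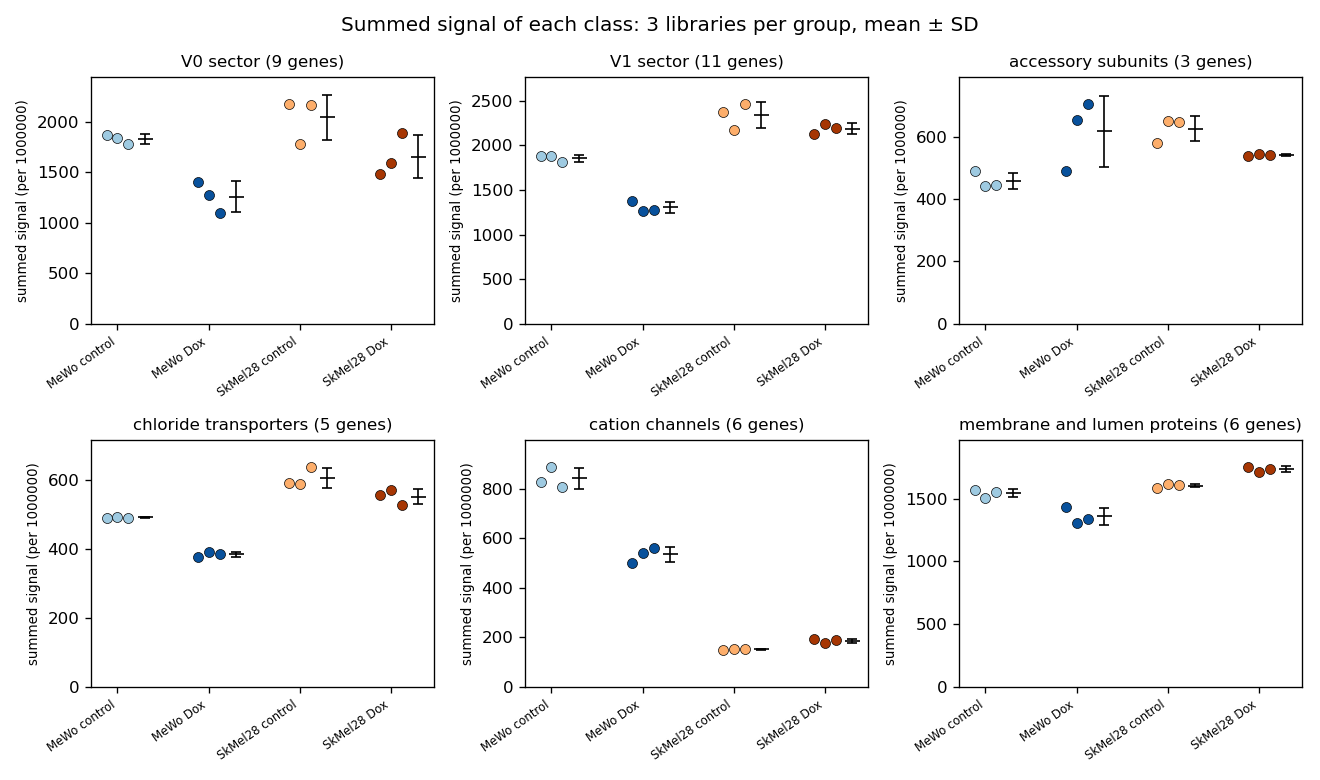
Summed normalised read counts of the members of each role (vertical axis, from 0) in the 4 groups, with 3 points for the libraries and a bar for the mean ± SD. The V0 and V1 sums are lower in all 3 MeWo Dox libraries than in MeWo control and overlap in SkMel28, and the cation channel sum is far lower in SkMel28 than in MeWo.

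The uninduced lines differed in 23 of 40 members, 14 higher and 9 lower in SkMel28, against 51.4% of all genes (26.6% higher, 24.8% lower). The 3 SkMel28 controls lay above the MeWo controls in 17 members and below in 9, where 31.6% and 30.5% of all genes did so, and the median difference was 0.22 over the members. Spike-in scaling, which moved all genes by 0.140 here, gave 15 higher and 6 lower, with 46.5% of all genes called. TPCN2 stood furthest apart, at 720.4 ± 41.0 in MeWo and 15.6 ± 1.70 in SkMel28 (log2 difference −5.45 ± 0.12, adjusted p = 3.23e-15). The others furthest down in SkMel28 were ATP6V0A4 (−1.34, 4 reads in 3 libraries against 25, ratio 6.40, exact 95% interval 2.21 to 25.3), ATP6V1B1 (−1.30 ± 0.35), TPCN1 (−1.13 ± 0.16) and TMEM175 (−1.05 ± 0.29). The 5 furthest up in SkMel28 were MCOLN3 at 52.5 ± 3.05 against 9.93 ± 3.04 (2.33 ± 0.21), ATP6V1E2 (1.88 ± 0.23), MCOLN2 at 37.0 ± 1.07 against 13.0 ± 1.60 (1.45 ± 0.17), ATP6AP1L (1.38 ± 0.31) and ATP6V1E1 at 604 ± 74.2 against 252 ± 16.9 (1.25 ± 0.12). Of the 6 cation channels, TPCN2, TPCN1 and TMEM175 were thus lower in SkMel28 and MCOLN3 and MCOLN2 higher. RHOQ, which overlaps ATP6V1E2, was 2.14 higher on the same scale. Each member named above was called and, except TMEM175 (adjusted p = 0.00512) and ATP6V1B1 (0.00470), had an adjusted p of at most 0.00132. ATP6V0A1, ATP6V0C and ATP6V1A, called with Dox in MeWo, were not called between the uninduced lines (0.23, 0.08 and 0.06).

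**Figure D5:**
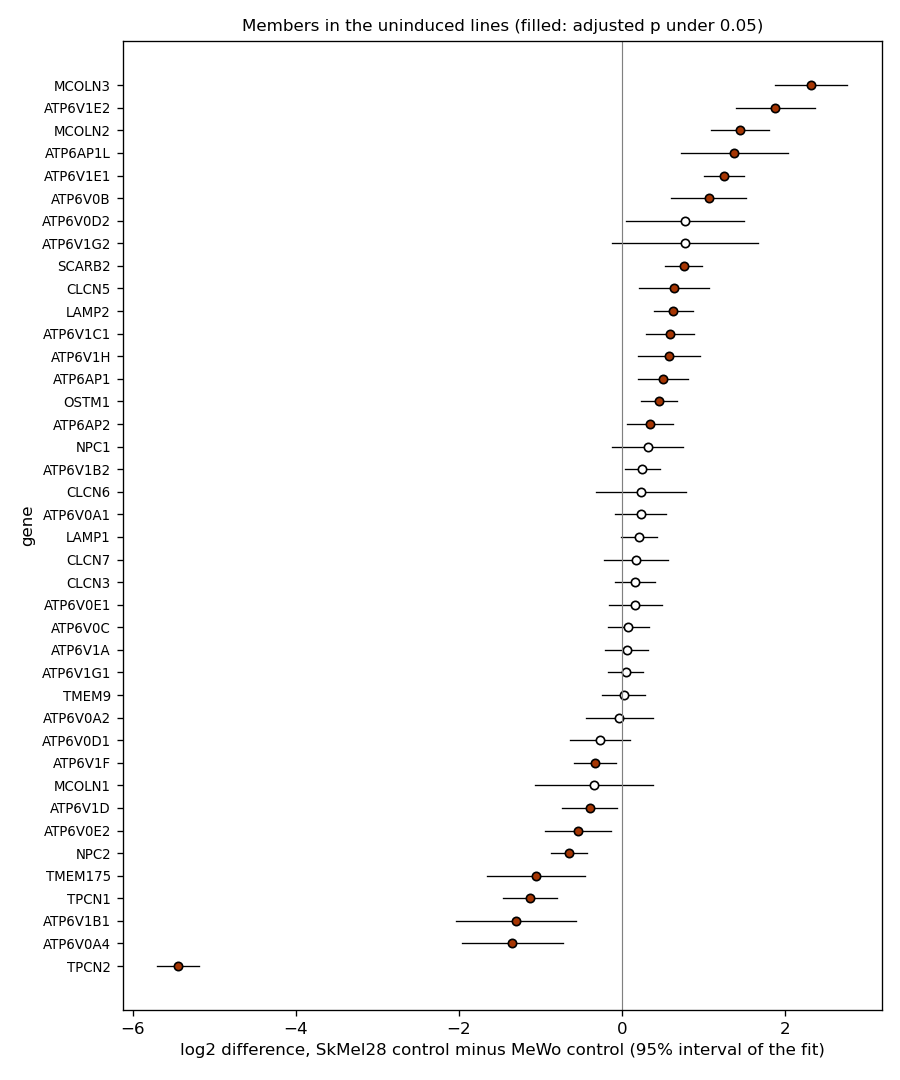
Log2 difference of SkMel28 control minus MeWo control for the 40 members (horizontal axis), with the 95% interval of the fit and filled points for an adjusted p under 0.05. MCOLN3 lies at the top at 2.33 and TPCN2 at the bottom at −5.45, far from the other members.

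Genes around the pump were read from lists of the pathway. Of 13 genes for V-ATPase assembly and regulation, 11 were listed, and 2 were called lower in MeWo, 1 in SkMel28 and 0 higher in either, with a median of −0.16 and 0.07, beside 16.7% and 10.9% of all genes called in either direction. These shares are near those of all genes. CCDC115, an assembly factor of the V0 sector, was lower in MeWo (log2 change −1.32, adjusted p = 0.000148) and in SkMel28 (log2 change −0.89, adjusted p = 0.00635), and DMXL2, a subunit of the rabconnectin complex that joins the sectors, in MeWo (log2 change −0.84, adjusted p = 0.0185). Of 34 other lysosomal membrane proteins, 30 were listed. In MeWo 3 were called lower and 1 higher (median −0.11), beside 16.7% of all genes (8.12% lower, 8.58% higher). In SkMel28 6 were called lower and 3 higher (median 0.03), beside 10.9% of all genes (5.04% lower, 5.88% higher). For 4 of the 30 the difference between the lines was called, 3 with the lower change in MeWo and 1 with the higher, against 7.09% of all genes. Called lower with Dox were SLC15A4 and GLMP in both lines, SLC11A2 in MeWo, and CD68, CD63, TMEM192 and SLC17A5 in SkMel28. Called higher were ABCA2 in MeWo, and SIDT2, LAPTM4B and LMBRD1 in SkMel28. The 4 with the smallest adjusted p in either line were SLC15A4, CD68, CD63 and ABCA2. SLC15A4, a peptide and histidine transporter, was lower in MeWo (log2 change −1.16, adjusted p = 1.53e-05) and in SkMel28 (log2 change −0.46, adjusted p = 0.0423). CD68, a lysosomal glycoprotein best known from macrophages, was lower in SkMel28 (log2 change −2.03, adjusted p = 1.71e-05), as was the tetraspanin CD63 (log2 change −0.71, adjusted p = 0.000534). ABCA2, a lipid transporter, was higher in MeWo (log2 change 1.28, adjusted p = 0.000629).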

How the data were processed

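Total RNA of 12 libraries was sequenced from its 3′ ends with the QuantSeq Forward kit. The submitters' processing notes name FastQC 0.11.7, cutadapt 2.8, STAR 2.5.1b, edgeR and the hg38 build. The counting tool, annotation, strand and treatment of reads with several matches are not given in the sources used here. The values deposited by the authors are a normalised signal, not raw counts: reads divided by an effective library size, times 1000000. In each library 100% of them were whole multiples of 1 read within 0.01 reads. Trimmed-mean sizes recomputed with edgeR 4.0.16 differed from the authors' by at most 1.29e-11 in relative terms. The table lists 67 spike-ins, set aside, and 12616 genes, each at 1 or more in at least 3 libraries.

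Log2(value + 1) was fitted with limma 3.58.1 (R 4.3.3; lmFit, eBayes with trend, 4 group means, two-sided tests, Benjamini-Hochberg over 12616 genes), after tests on simulated data. Compared were Dox with control in MeWo and in SkMel28, the difference of these changes (interaction, MeWo minus SkMel28), and SkMel28 control minus MeWo control. limma was used in place of the study's edgeR test because the values are normalised. Alternatives were edgeR's quasi-likelihood test and DESeq2 1.42.0 on recovered reads, upper-quartile, quantile and spike-in scaling, pseudocounts of 0.1 and 5, a filter of at least 5 in 3 libraries, no trend, only the groups compared, a replicate block, and leaving out each library. A group was at the floor when each of its libraries held 3 reads or fewer; intervals cover counting error only, since reads without molecular identifiers are not independent molecules. Coordinates are from GENCODE release 44 (hg38). The members, the lists and the rule for naming genes (members called with Dox or for the interaction in full, and the 5 furthest each way between uninduced lines) were chosen with earlier results of these data known. The MeWo calls that TMEM175 and ATP6AP1 gained were singled out after their values were seen. A comparison of paralog protein sequences was planned and not made here.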

Additional observations from a re-analysis of the deposited data

Results flagged for a closer look

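The change with Dox differed between MeWo and SkMel28 in 6 members by the interaction term of limma over all 12 libraries, where 7.09% of all genes were called. TPCN2 differed by −1.72 on the log2 scale (MeWo minus SkMel28, adjusted p = 1.66e-05), with all 3 MeWo Dox libraries below their controls and all 3 SkMel28 Dox libraries above theirs. ATP6V1E2 differed by 1.43 (adjusted p = 0.0143) and ATP6AP1 by 0.98 (adjusted p = 0.00943), both lower with Dox in 3 of 3 SkMel28 libraries. ATP6V1B2 differed by −0.86 (adjusted p = 0.00166) and LAMP2 by −0.77 (adjusted p = 0.00812), both lower with Dox in 3 of 3 MeWo libraries, and neither was called once libraries were scaled to the spike-ins. MCOLN3 differed by −1.05 (adjusted p = 0.0410), the least stable of the 6.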

How the results depend on the processing

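No called member changed sign in any alternative. Of the members called, 6 of 17 in MeWo, 6 of 10 in SkMel28, 2 of 6 for the interaction and 17 of 23 between the uninduced lines kept their call in every alternative that tested them (at most 23, and 22 for the interaction). These were ATP6V0A1, ATP6V0D2, ATP6V1B2, LAMP2, SCARB2 and TPCN2 in MeWo, ATP6AP1, ATP6V0D2, ATP6V1E2, CLCN7, SCARB2 and TPCN2 in SkMel28, and ATP6V1E2 and TPCN2 for the interaction. A fit of only the groups compared called 11 members in place of 17 in MeWo (6.44% of all genes in place of 16.7%). It called 13 in place of 10 in SkMel28 (12.3% in place of 10.9%) and 26 in place of 23 between the uninduced lines (56.7% in place of 51.4%). Lost in MeWo were ATP6AP2, ATP6V0C, ATP6V0E1, ATP6V1F, ATP6V1H and CLCN7. Such a fit has fewer samples behind the spread and leaves out the other groups, and the cause of these shifts was not tested. Without the mean-variance trend the interaction called 3 members in place of 6, and 4.39% of all genes in place of 7.09%. The cause was not tested. Leaving out 1 library at a time gave 15 to 21 members in MeWo, 8 to 14 in SkMel28, 5 to 14 for the interaction and 17 to 26 between the uninduced lines. The shares of all genes called were 10.2 to 31.0%, 6.21 to 16.2%, 3.56 to 24.7% and 45.1 to 56.6%. Members and shares were highest each time without MeWo Dox library 1. Where a group was left with 2 libraries, the other groups lent it their spread. Scaling to the spike-ins gave 12, 7, 4 and 21. On recovered reads, edgeR called 17, 9, 6 and 24 members and 16.2%, 11.3%, 6.39% and 51.1% of all genes.

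The labels give replicate numbers but no pairing, and deviations of same-numbered control and Dox libraries correlated at −0.305, −0.073 and 0.047 in MeWo and −0.105, 0.120 and 0.289 in SkMel28. Only 1 of 6 MeWo and 3 of 6 SkMel28 libraries correlated best with their own number. With a replicate block within each line, 18, 8, 6 and 22 members were called, MCOLN3 gained in MeWo and ATP6V1C1 and ATP6V1F lost in SkMel28. The block called 14.4%, 8.48%, 5.08% and 50% of all genes, in place of 16.7%, 10.9%, 7.09% and 51.4%. Depth limits MCOLN1, ATP6V0A4, ATP6V1B1, ATP6V1G2 and ATP6AP1L, which held few reads in any library, so changes in them were not detectable at this depth unless large.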
